A study of Mus musculus with 2 samples.

Results

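The nuclear-encoded subunits of respiratory complexes II, III and V were followed in gastrocnemius, the large calf muscle. They were chosen by name: every gene with a protein-coding transcript whose symbol is Sdha, Sdhb, Sdhc, Sdhd or Cyc1, or begins with Uqcr or Atp5, leaving out Atp5s, Atp5sl and pseudogenes. This gave 30 genes of the 55536 annotated genes with a row in both gene tables, 4 of complex II, 9 of complex III and 17 of complex V. The muscle was taken from female mice of the B6CASTF1/J hybrid, a cross of a laboratory strain with a castaneus strain, aged 36 days, and total RNA was sequenced. The series holds 1 group of 2 libraries, both with 300 ng of input RNA and ERCC spike-in RNAs, and no treatment or second condition. The labels number the libraries as biological replicates 1 and 2. Whether 2 animals were used is not said, and part of any difference between the libraries may be technical. A single group allows no test, and no p-value is given.

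Complex II, succinate dehydrogenase, passes electrons from succinate to ubiquinone and is also an enzyme of the citric acid cycle. Complex III takes electrons from ubiquinol to cytochrome c and pumps protons, and complex V, the ATP synthase, lets protons back through a turning ring of c subunits to make ATP. Complex II is encoded wholly by nuclear genes, whereas complexes III and V also hold subunits encoded by mitochondrial DNA, so their assembly needs products of both genomes. In skeletal muscle these enzymes are known to be more abundant in oxidative than in glycolytic fibres. Because the tissue was sequenced in bulk, fewer cells or fibres of a type and less RNA per cell cannot be told apart.

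The gene tables held 37735687 expected counts in replicate 1 and 40656175 in replicate 2. Both libraries carried fast fibre RNA, with the 4 markers Myh4, Mylpf, Tnnt3 and Atp2a1 summing to 66728 TPM in replicate 1 and 47236 TPM in replicate 2. TPM is a level scaled within each library that allows for transcript length. The 7 slow fibre markers Myh7, Myl2, Myl3, Tnnc1, Tnnt1, Tnni1 and Atp2a2 summed to 15.1 and 2612 TPM in the same order. Myh7, the slow myosin heavy chain, stood at 0.24 and 472 TPM. The libraries therefore stand apart in slow fibre RNA, and in replicate 1 the slow markers other than Atp2a2 were near 0. The 4 white fat markers summed to 211 and 23.7 TPM, the 5 red blood cell markers to 2445 and 425 TPM, and the 3 myelin markers to 115 and 34.8 TPM, in each case lower in replicate 2. The other lists were small in both: T cell 0.2 and 4.89 TPM, brown fat 0.13 and 0.89 TPM with Ucp1 at 0 in both, macrophage 4.12 and 4.62 TPM, and endothelial 27.8 and 29.9 TPM. The 2 fibroblast markers summed to 220.1 and 243 TPM.

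As a group, 29 of the 30 genes were expressed, and 28 of them were among the 500 highest of the 9942 nuclear protein-coding genes that reached 1 TPM in each library. The exception among the expressed genes was Atp5g2, described with the c ring. The remaining gene is a second locus also named Atp5o (chromosome 16, 91684398 to 91926982, mm10), which overlaps the main Atp5o gene by its coordinates and was listed at 0 and 2.62 counts. It was left out of medians, ratios and counts below. The 29 summed to 8203 TPM in replicate 1 and 10972 TPM in replicate 2, which was 1.82% and 2.69% of the TPM of nuclear protein-coding genes. Complex V held most of this, with 5309 and 7026 TPM over 16 genes, complex III held 2273 and 3025 TPM over 9, and complex II held 621 and 921 TPM over 4. The median gene stood at 208 ± 60.1 TPM in complex II, 313 ± 43.2 TPM in complex III and 291 ± 56.7 TPM in complex V (SD, n = 2). The medians of complexes III and V differed by less than their spread between the libraries. The order of the genes was nearly the same in both libraries, with Spearman's rho of 0.983 across the 29 genes, which are not independent replicates.

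**Figure D1:**
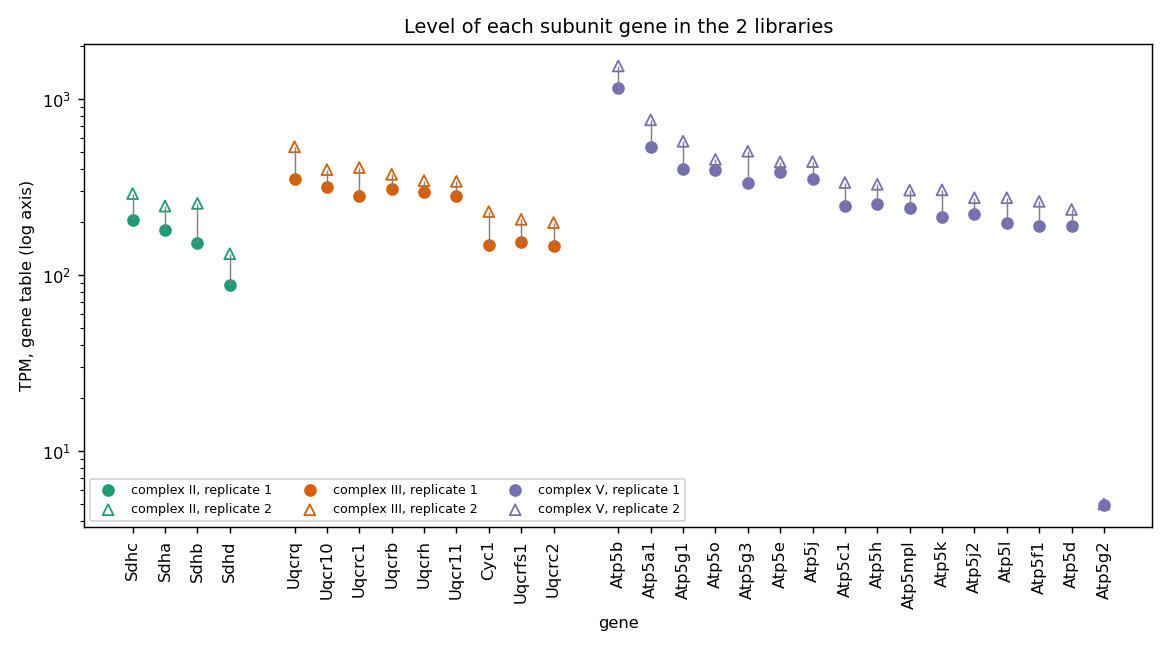
TPM from the gene table for each of the 29 expressed genes on a log axis, grouped by complex, with filled circles for replicate 1, open triangles for replicate 2 and a line joining them. Atp5b stands highest at 1160.1 and 1539 TPM, Atp5g2 lowest at 4.88 and 4.97 TPM, and the triangle lies above the circle for each gene.

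Levels here and in the next paragraphs are from the gene table, and several of the orders turn in the reads-based table, as given after them. In complex II, Sdhc was the highest and Sdhd the lowest gene, both of them anchors that hold the enzyme in the inner membrane and bind haem and ubiquinone. Sdhc stood at 203 and 289 TPM in replicates 1 and 2, and Sdhd at 87.3 and 132 TPM. Sdha, the flavoprotein that oxidises succinate, stood at 179.8 and 246 TPM, and Sdhb, the iron-sulfur subunit that carries the electrons on (chromosome 4, 140961203 to 140979193, mm10), at 151 and 255 TPM. Sdhb lay below Sdha in replicate 1 and above it in replicate 2, so the 2 genes had no fixed order there. Sdhd was the lowest of the 4 in both libraries. The enzyme holds a single copy of each of these proteins.

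In complex III, the genes fell into a higher and a lower set that followed role in part. The redox subunits were in the lower set: Cyc1, cytochrome c1 (chromosome 15, 76343523 to 76346260, mm10), stood at 148 and 229 TPM and Uqcrfs1, the Rieske iron-sulfur protein, at 154 and 207 TPM. Of the 2 core proteins, which derive from processing peptidases, Uqcrc1 stood at 282 and 407 TPM and Uqcrc2 at 145 and 198 TPM. The 2 core genes differed from each other by more than either differed between the libraries. The 5 small supernumerary subunits, which surround the redox core, were all above the redox subunits in both libraries. Among them Uqcrq was the highest at 349.8 and 534 TPM. It was followed in replicate 2 by Uqcr10 at 316 and 396 TPM, Uqcrb, which contacts the quinone-binding region, at 306 and 372 TPM, Uqcrh, the hinge protein near cytochrome c1, at 294 and 343 TPM, and Uqcr11 at 279 and 339 TPM. Each of these 4 neighbours in the order differed from the next by less than its own spread between the libraries.

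In complex V, the subunits known to be present in several copies per enzyme had the highest levels, the c subunit being taken as the sum of its 3 genes. Atp5b, the catalytic beta subunit (chromosome 10, 128083273 to 128090391, mm10), stood at 1349 ± 268 TPM (SD, n = 2), and Atp5a1, the alpha subunit of the same head, at 646 ± 161 TPM (SD, n = 2). Atp5b was 2.18 times Atp5a1 in replicate 1 and 2.02 times in replicate 2, although the head holds the 2 proteins in equal number. These levels include non-coding transcripts. In the transcript table made from alignments, the processed transcript Atp5b-206 held 251 and 319 TPM of Atp5b. The coding transcript Atp5b-201 stood at 869 and 1155 TPM and Atp5a1-201 at 524 and 747 TPM, so between these 2 the ratio was lower. The 3 c ring genes summed to 735 and 1083 TPM. Taken singly, Atp5g3 lay below Atp5o in replicate 1, at 331 against 395 TPM, and above it in replicate 2, at 504 against 453 TPM. The 11 genes for subunits with 1 copy per enzyme had medians of 240.5 and 304 TPM and reached 395 TPM in replicate 1 and 453 TPM in replicate 2, so in the gene table they did not overlap with Atp5a1, Atp5b or the summed ring.

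The central stalk, which turns inside the head, is built from Atp5c1 (gamma), Atp5d (delta) and Atp5e (epsilon). Atp5e stood at 383 and 438 TPM, Atp5c1 at 247 and 335 TPM and Atp5d at 189.9 and 235 TPM, and this order held in both libraries. In the peripheral stalk, which holds the head still, Atp5o, the oligomycin sensitivity protein, stood at 395 and 453 TPM and Atp5j, coupling factor 6, at 349.5 and 439.8 TPM. Atp5h, subunit d, stood at 254 and 327 TPM and Atp5f1, here the gene of subunit b, at 190.4 and 261 TPM. The 2 highest and the 2 lowest stalk genes kept their places in both libraries. The supernumerary membrane subunits, which sit near the dimer interface, lay close together when the copies of Atp5l, described below, were left out. Atp5mpl stood at 240.5 and 303 TPM, Atp5k (subunit e) at 214 and 304 TPM, Atp5j2 (subunit f) at 222 and 274 TPM and Atp5l (subunit g) at 197 and 274 TPM. Their ranges overlapped across libraries, and Atp5k lay below Atp5mpl and Atp5j2 in replicate 1 and above both in replicate 2. Another subunit of this region, Usmg5, falls outside the rule by its symbol and stood at 365 and 469 TPM, and the inhibitor of the enzyme, Atpif1, at 20.6 and 20.1 TPM.

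The c ring is encoded by 3 genes, Atp5g1, Atp5g2 and Atp5g3, whose proteins differ in the cleaved targeting sequence and share the mature subunit. Translation of the annotated coding sequences gave 78 identical residues at the end of all 3 proteins. The bases are not identical: over these 234 bases Atp5g1 and Atp5g2 shared 84.6%, Atp5g1 and Atp5g3 78.6%, and Atp5g2 and Atp5g3 77.4%. Reads that cover a differing base tell the genes apart. The last 60 coding bases, stop codon included, are shown because they carry these differences, with capitals at the 17 positions where the 3 genes are not all equal. The last line is the same stretch of Gm10175, annotated as a transcribed processed pseudogene. Sequences are from GENCODE M21 transcripts on mm10: Atp5g1 from chr11:96073104-96073163, minus strand, Atp5g3 from chr2:73908593-73908652, minus strand, Atp5g2 from chr15:102663014-102663073, minus strand, and Gm10175 from chr7:23946792-23946851, minus strand.
Atp5g1: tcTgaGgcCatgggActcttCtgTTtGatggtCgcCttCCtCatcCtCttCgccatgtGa
Atp5g3: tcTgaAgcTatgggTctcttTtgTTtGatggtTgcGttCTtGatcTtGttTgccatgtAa
Atp5g2: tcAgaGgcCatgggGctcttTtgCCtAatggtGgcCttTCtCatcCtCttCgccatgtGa
Gm10175: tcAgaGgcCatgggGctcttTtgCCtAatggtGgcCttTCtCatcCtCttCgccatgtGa
The last 2 lines are the same in each base.

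In the gene table, Atp5g1 (chromosome 11, 96068852 to 96075670) stood at 399 and 574 TPM, Atp5g3 (chromosome 2, 73908447 to 73911326) at 331 and 504 TPM and Atp5g2 (chromosome 15, 102662864 to 102672352) at 4.88 and 4.97 TPM. Their shares of the summed TPM were 54.3% and 53% for Atp5g1, 45% and 46.5% for Atp5g3 and 0.664% and 0.459% for Atp5g2. The value of Atp5g2 rested on 93.5 and 101 expected counts with posterior SDs of 28.1 and 36.4. The gene table placed 3095 and 3847 counts on Gm10175 (chromosome 7, 23946646 to 23947290), whose 645 bases match Atp5g2 over their whole length with 100% identity. The reads-based table placed 2853 and 3465 counts on Atp5g2 and none on Gm10175. With the copies added, Atp5g2 took 19.9% and 16.7% of the ring's TPM, and 23% and 18.7% by the reads-based values. Reads within the shared stretch, bases 83 to 727 of the 731-base Atp5g2-202, cannot be told apart. Reads on the remaining bases of Atp5g2 are not listed separately, so only the sum of Atp5g2 and Gm10175 is read here. In the reads-based table Atp5g1 held 37.4% and 38.3% and Atp5g3 39.6% and 43%, Atp5g3 being the higher in both libraries. By TPM in the gene table Atp5g1 was the higher, so the order of these 2 genes depends on the table.

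**Figure D2:**
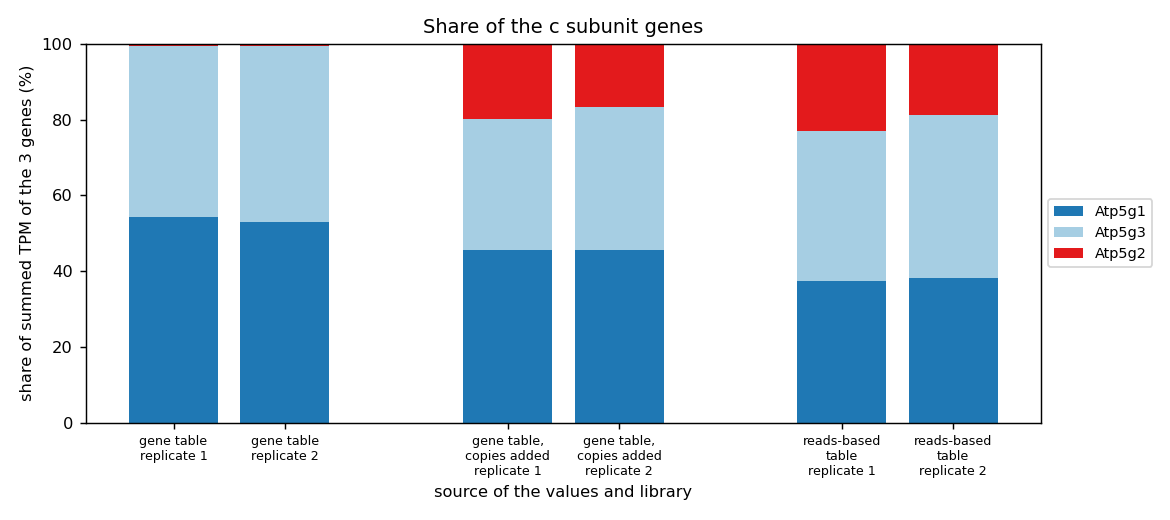
Stacked bars of the share of Atp5g1, Atp5g3 and Atp5g2 in their summed TPM, in percent, for each library, from the gene table, from the gene table with near-identical copies added to their gene, and from the reads-based table. Atp5g2 is 0.664% and 0.459% in the first pair of bars and 23% and 18.7% in the last.

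Other genes of complex V share reads with processed copies to a lesser degree. A search for annotated copies of at least 95% identity over at least 80% of the copy found 27, of which 16 held counts. Gm10221 (chromosome 5, 24581554 to 24581862), identical to Atp5l over 309 bases, held 1304 and 1628 counts, and copies took 32.5% and 28.9% of the reads of Atp5l and its copies. Gm10250 (chromosome 15, 5120654 to 5121135), 99% identical to Atp5h, held 878 and 1127 counts. Copies of Atp5h together took 18.9% and 17.7% of its reads. Gm10039, 99.8% identical to Atp5g1, held 342 and 372 counts, which was 5.22% and 3.82%. Gm5436, a copy of Atp5o, held 95.5 and 131 counts in the gene table and 497 and 571 in the reads-based table. For complexes II and III, copies took at most 0.268% of the reads of any gene. A 60-base stretch of the coding sequence shows how little separates Atp5h from Gm10250, with a capital at the only base that differs (mm10, chr11:115418429-115418488, minus strand, for Atp5h and chr15:5121057-5121116, minus strand, for Gm10250).
Atp5h: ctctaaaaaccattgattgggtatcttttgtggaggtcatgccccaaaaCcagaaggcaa
Gm10250: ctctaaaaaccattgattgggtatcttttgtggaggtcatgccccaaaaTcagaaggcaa
The levels of Atp5l, Atp5h and Atp5g1 in the gene table are therefore uncertain by what lies on their copies. With the TPM of copies added, Atp5l stood at 403 and 519 TPM. That was above Atp5mpl, Atp5k and Atp5j2 in both libraries, where without copies Atp5l was the lowest of these. Atp5h then stood at 329 and 418 TPM and Atp5g1 at 435 and 611 TPM.

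The level of a gene also depended on the table. The reads-based TPM was 1.63 times the gene table's in replicate 1 and 1.53 times in replicate 2, as medians over the 28 genes other than Atp5g2. Over the nuclear protein-coding genes the same medians were 1.53 and 1.42. The members ranged from 0.815 to 3.51 times in replicate 1. Sdhc was at the low end, with 166 and 225 TPM in the reads-based table. There it lay below Sdhb at 263 and 415 TPM and Sdha at 258 and 309 TPM, and Sdhb was above Sdha in both libraries, so of the order in complex II only the place of Sdhd as the lowest held in both tables. Atp5e, a short mRNA, was at the high end, with 1343 and 1418 TPM there, which placed it above Atp5a1 at 872 and 1177 TPM. It was also above the summed c ring in replicate 1, at 1268 TPM, and below it in replicate 2, at 1716 TPM, so the single-copy subunits overlapped with both. In complex III, Uqcr10 at 573 and 616 TPM was above Uqcrq at 552 and 731 TPM in replicate 1, and Cyc1 at 372 and 518 TPM was above Uqcrh at 477 and 512 TPM in replicate 2. In the peripheral stalk, Atp5h at 685 and 750.1 TPM was above Atp5j at 583 and 713 TPM in both libraries. The supernumerary membrane subunits lay further apart there, from Atp5k at 259.7 and 362 TPM to Atp5j2 at 628 and 711 TPM. Spearman's rho between the tables was 0.812 in replicate 1 and 0.822 in replicate 2 across 29 genes measured from the same reads.

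**Figure D3:**
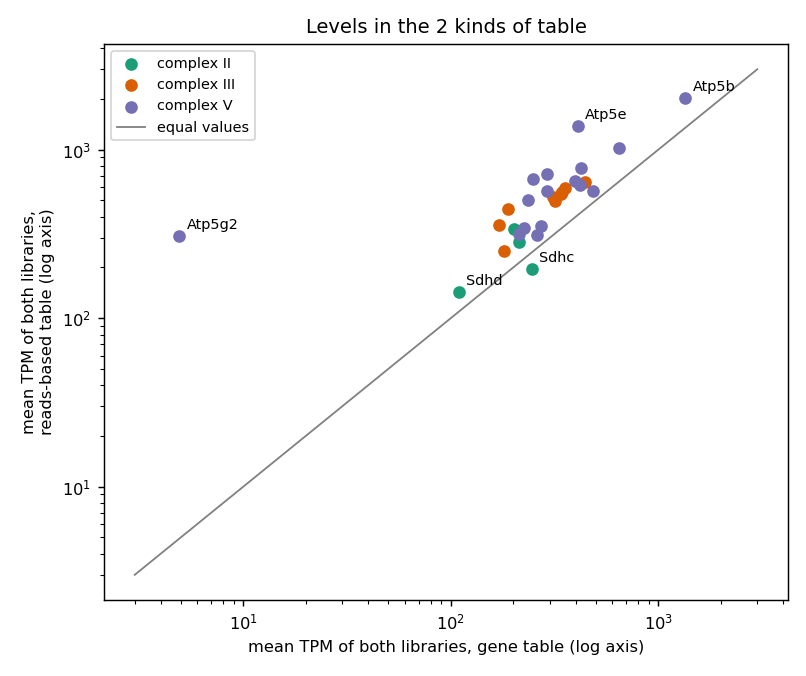
Mean TPM of both libraries from the gene table against that from the reads-based table for 29 genes, both on log axes, coloured by complex, with a line of equal values. Atp5g2 lies far above the line, Atp5e above it, and Sdhc below it.

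In the alignment-based values, most genes were carried by 1 transcript. In the transcript table made from alignments, the leading transcript held a median of 96.6% of its gene's TPM in replicate 1 and 95.6% in replicate 2, and it was the same transcript in both libraries for 29 of 29 genes. The reads-based table named the same leading transcript for 17 of 29 genes in replicate 1 and 18 in replicate 2. The leading transcript was of the protein-coding type for 27 of 29 genes by alignment and 23 of 29 in the reads-based table, in both libraries. Sdhb-201 led in both tables, with 98.9% and 98.8% by alignment and 99.1% and 99.2% in the reads-based table. The tables parted on Atp5j, where the retained-intron transcript Atp5j-208 held 91.7% and 92.2% by alignment and 0% and 4.6% in the reads-based table, and on Atp5k, where the retained-intron transcript Atp5k-203 held 1.83% and 2.23% by alignment and 100% and 99.6% in the reads-based table. They parted as far on Uqcrh, where the processed transcript Uqcrh-204 held 6.23% and 3.85% by alignment and 99.9% and 99.5% in the reads-based table, and on Uqcr11, where Uqcr11-201 held 99.6% and 99.2% by alignment and 0% and 12.6% in the reads-based table. In replicate 1 the leading transcript differed between the tables for 12 genes, which also included Atp5f1, Atp5g1, Atp5g3, Atp5h, Atp5l, Atp5mpl, Cyc1 and Uqcr10. For these genes the leading transcript cannot be read from the tables.

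In Atp5f1, the gene of subunit b, both tables placed a large share on a transcript annotated for nonsense-mediated decay, a type whose reading frame ends early. Atp5f1-203 held 50.2% and 52.8% of the gene's TPM by alignment and 43.3% and 48.1% in the reads-based table. The coding transcript Atp5f1-201 held 48% and 45.3% by alignment and 56.1% and 50.7% in the reads-based table. Both transcripts were thus near equal in both libraries. In Cyc1 the coding transcript Cyc1-201 held 67.2% and 73% by alignment and 24% and 29.6% in the reads-based table, where Cyc1-202, also annotated for nonsense-mediated decay, held 42.2% and 31.6%. In Sdhc the short coding transcript Sdhc-203 took 44.5% and 43.9% by alignment and none in the reads-based table.

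Atp5c1 (chromosome 2, 10056016 to 10080510, minus strand, mm10), the gene of the gamma subunit, has a 37-base cassette exon, exon 9 of Atp5c1-202 (10056770 to 10056806), that changes the last coding bases. Skipping of this exon is known as the muscle form of the gene. The coding ends are shown because the exon changes them: 30 shared bases of the exon before the junction in lower case, then the coding bases after it in capitals up to the stop codon (mm10, chr2:10056158-10059025, minus strand, without the exon, and chr2:10056800-10059025, minus strand, with it, each span including an intron that is not printed).
Atp5c1-201: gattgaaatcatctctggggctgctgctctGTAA
Atp5c1-202: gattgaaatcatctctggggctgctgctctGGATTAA
Skipping leaves 4 bases after the junction and inclusion 7, counting the stop codon. The annotated proteins of Atp5c1-201 and Atp5c1-202 have 297 and 274 residues, so these 2 transcripts also differ elsewhere in their coding sequence. The transcripts counted as including the exon, Atp5c1-202 and Atp5c1-203, held 3.99% of the TPM of the 3 transcripts in replicate 1 and 1.37% in replicate 2, with 9.81 and 4.53 TPM against 236 and 327 TPM for Atp5c1-201. Most of this was Atp5c1-203, at 9.25 and 4.12 TPM, whose end is not printed and whose exons were not compared, so the share rests on that assignment. In the reads-based table Atp5c1-202 and Atp5c1-203 together held 6.82% and 3.32%. The share leaves out the other coding transcripts, of which Atp5c1-204 held 14.7% and 18.3% and Atp5c1-207 29.9% and 24.3% of the gene's TPM in the reads-based table. Among the 3 transcripts the skipped form Atp5c1-201 held the larger share in both libraries and both tables. The share counted as including the exon was lower in replicate 2 in both tables.

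Between the libraries, each of the 29 genes was higher in replicate 2. The ratio was taken as log2 of replicate 2 over replicate 1 from expected counts scaled by library size and TMM factors. As background serve 9996 well-covered genes, those whose expected counts averaged 100 or more over the libraries. Of these, 49% were higher in replicate 2, against 29 of 29 members. The gene-table ratio of Atp5g2, 0.06, cannot be read apart from Gm10175, and with its copies added Atp5g2 stood at 0.25. The median log2 ratio was 0.44 over the members and -0.01 over all these genes. By complex it was 0.58 for complex II, 0.44 for complex III and 0.42 for complex V. Over 1.5-fold higher in replicate 2 were 5 of 29 members, 2 of complex II, 2 of complex III and 1 of complex V, where 5.77% of all these genes were. No member was over 2-fold higher, where 2.11% of all genes were, and none was over 1.5-fold higher in replicate 1, where 3.23% were. The ratios of the other 28 members lay between 0.20, for Atp5o, and 0.77, for Sdhb. The spread between the libraries over all genes passing edgeR's filter was a common coefficient of variation of 0.22, given as a description.

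The 5 members past 1.5-fold were Sdhb at 0.77, Cyc1 at 0.71, Atp5g3 at 0.62, Sdhd at 0.61 and Uqcrq at 0.60 on the log2 scale. Just under the threshold lay Sdhc at 0.55 and Uqcrc1 at 0.55. Sdhb rested on 4797 and 8563 counts and Cyc1 on 5174 and 8807. The lowest ratio was 0.40 in complex II, for Sdha, and 0.26 in complex III, for Uqcrh. In complex V, leaving aside the gene-table value of Atp5g2, Atp5o at 0.20 and Atp5e at 0.21 were the lowest. The highest levels had middling ratios, 0.43 for Atp5b and 0.53 for Atp5a1. By role in complex III, the 2 redox subunits had a median of 0.57, the 2 core subunits 0.52 and the 5 supernumerary subunits 0.30. In complex V the medians were 0.53 for the c ring, which includes the gene-table value of Atp5g2, 0.48 for the catalytic alpha and beta subunits, 0.43 for the supernumerary membrane subunits, 0.38 for the peripheral stalk and 0.32 for the central stalk. The ratios of single subunits within a role ranged widely enough that the roles overlap, for example from 0.26 to 0.60 among the supernumerary subunits of complex III.

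**Figure D4:**
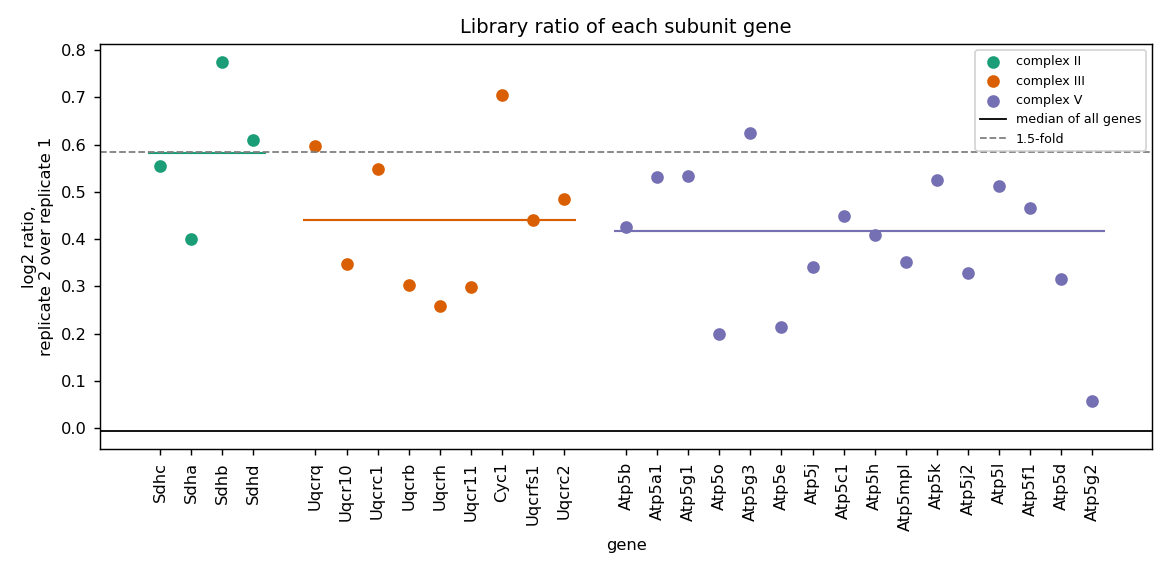
Log2 ratio of replicate 2 over replicate 1 for 29 genes, grouped and coloured by complex, with short lines at the median of each complex, a black line at the median of all well-covered genes and a dashed line at 1.5-fold. The points lie above 0, and 5 of them lie above the dashed line. The lowest point is the gene-table value of Atp5g2.

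Gene length went with the ratio in part. The 18 members with a mean transcript length under 1000 bases in the gene tables had medians of 0.35 (6 genes under 500 bases) and 0.33 (12 genes), the 9 members of 1000 to 2000 bases had a median of 0.48, and the 2 members over 2000 bases 0.47. Well-covered protein-coding genes went the other way, with medians of 0.12 under 500 bases, 0.05 from 500 to 1000, 0.01 from 1000 to 2000 and -0.02 over 2000. Across the 29 members Spearman's rho of length and ratio was 0.362, as a description of genes measured in the same 2 libraries. Its part in the differences between subunits was not tested.

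The scaling sets the size of the shift, and no member's direction turned. For the spike-ins this was fixed in advance, since they move every gene by nearly the same amount towards replicate 2. With the spike-in total as the reference, the median ratio of all genes moved from -0.01 to 0.38 and 92.3% of them were higher in replicate 2, and the number of members past 1.5-fold went from 5 to 27, where 22.5% of all these genes passed. Past 2-fold were then Sdhb, Cyc1 and Atp5g3, where 5.19% of all these genes were. Relative to that moved median the members' shift stays about the same by construction, because this reference moves all genes alike. With TPM rescaled to nuclear protein-coding genes the median of all genes was 0.13, 69.5% were higher in replicate 2, and 15 members passed 1.5-fold, where 10% of all these genes did. With TMM scaling, the slow fibre markers moved in the same direction as the subunits, with a median log2 ratio of 9.81. Of these, 7 of 7 were over 2-fold higher in replicate 2, where 2.11% of all well-covered genes were. The fast fibre markers moved the other way under TMM, 4 of 4 lower, with a median of -0.48, where 49% of all genes were higher. With the spike-in total their median was -0.09, with Atp2a1 at 0.02, Tnnt3 at -0.02, Myh4 at -0.17 and Mylpf at -0.23. White fat, red blood cell and myelin markers were lower in replicate 2, with TMM median log2 ratios of -3.11, -2.51 and -1.82. The part of fibre type and of the other tissues in the members' ratios was not tested.

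Complexes III and V also hold mitochondrially encoded subunits, and these stood higher and further apart between the libraries. mt-Cytb, the cytochrome b of complex III, stood at 4959.9 and 8998 TPM with a log2 ratio of 0.88. mt-Atp6, subunit a, which forms the proton path beside the c ring, stood at 1934 and 4433 TPM with a log2 ratio of 1.21, and mt-Atp8, subunit A6L, at 2537 and 5966 TPM with 1.25. All 3 ratios were above that of each nuclear member. The reads-based table placed 0 and 0 counts on mt-Atp8, and its log2 ratios were 0.83 for mt-Atp6 and 0.84 for mt-Cytb, against 0.76 for Sdhb, the highest nuclear member there. In complex III, mt-Cytb was 2.18 times the summed TPM of the 9 nuclear genes in replicate 1 and 2.97 times in replicate 2. In complex V, mt-Atp6 and mt-Atp8 together were 0.842 and 1.48 times the 16 nuclear genes. The reads-based table gave 1.95 and 2.68 for complex III and 1.24 and 1.7 for complex V. In both tables and both complexes the mitochondrial share was larger in replicate 2. mt-Atp6 and mt-Atp8 overlap on one mRNA, so their reads are divided by estimation, and nuclear copies of mitochondrial genes were not tested.

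The other genes of the pathway were compared on the same scale, over well-covered list members. Nuclear complex I subunits were higher in replicate 2 for 36 of 36 genes with a median log2 ratio of 0.36, and complex IV subunits for 15 of 15 with 0.47, which lie on either side of the medians of complexes III and V. Past 1.5-fold were 3 of 36 complex I and 3 of 15 complex IV genes, where 5.77% of all well-covered genes were and 49% were higher in replicate 2. The highest complex I genes were Ndufc1 at 381 and 403 TPM, Ndufa3 at 321 and 382 TPM, Ndufb8 at 303 and 381 TPM and Ndufb9 at 289.6 and 379.7 TPM. The highest complex IV genes were Cox8b at 635 and 754 TPM, Cox6b1 at 401 and 745 TPM (log2 ratio of counts 0.34), Cox4i1 at 467 and 630.3 TPM and Cox6a2 at 419 and 652 TPM. No gene of these 2 lists was past 2-fold.

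Assembly factors, which build the complexes without staying in them, were low beside the subunits. The 4 of complex II had a median of 6.25 and 10.2 TPM, and all 4 were higher in replicate 2, where 49% of all well-covered genes were, with a median log2 ratio of 0.47. Sdhaf2, which inserts the flavin into Sdha, stood at 13.6 and 19.5 TPM, Sdhaf4 at 10.6 and 17.6 TPM, Sdhaf1 at 1.9 and 2.71 TPM and Sdhaf3 at 1.71 and 1.87 TPM. Of the 7 of complex III, 5 were higher and 2 lower in replicate 2, with a median of 0.18. The 2 were Uqcc2 at -0.11 and Uqcc3, which was flat at -0.002. With the spike-in total they stood at 0.28 and 0.38, where 92.3% of all well-covered genes were higher. Uqcc2 stood at 161 and 148 TPM, within the range of the complex III subunits in replicate 1 and below it in replicate 2, Uqcc1 at 54.6 and 59.2 TPM, Uqcc3 at 22.4 and 22.1 TPM and Ttc19 at 12.3 and 13.3 TPM. Of complex V, 5 of 6 factors reached the count minimum, and 5 of these lay higher in replicate 2 (median 0.27). Tmem242 stood at 50 and 57.3 TPM, Fmc1 at 46.7 and 64.5 TPM, Tmem70 at 22.3 and 26.9 TPM and Atpaf1, which chaperones the beta subunit, at 13.7 and 18.4 TPM.

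Cytochrome c and coenzyme Q carry electrons into and out of complex III. Of the 13 list members with enough counts, 13 were higher in replicate 2, 5 of them past 1.5-fold, with a median log2 ratio of 0.55. Of all well-covered genes 49% were higher and 5.77% past 1.5-fold. Among the 13, Coq2 was flat, with a log2 ratio of 0.001 in the gene table and -0.05 in the reads-based table. Coq8b, under the minimum at 80 and 67 counts, was lower in replicate 2 with -0.32. Coq8a, an atypical kinase of coenzyme Q synthesis, was past 2-fold, at 100.1 and 402 TPM and a log2 ratio of 1.97. Coq10a stood at 117 and 170.0 TPM, Coq9 at 129 and 161 TPM and Cycs, somatic cytochrome c, at 29 and 40.8 TPM, while the testis form Cyct was listed at 0 in both. Among the regulators, carriers and cristae genes, 12 of 13 lay higher in replicate 2, and the list's median was 0.30. Past 2-fold was Ckmt2, the mitochondrial creatine kinase of striated muscle, at 184 and 489.9 TPM and 1.43. Slc25a4, the adenine nucleotide carrier of muscle, stood at 957 and 1169 TPM, Vdac1, an outer membrane channel, at 475 and 569 TPM, and Slc25a3, the phosphate carrier, at 320.1 and 441 TPM. Atpif1 had a log2 ratio of -0.02, below each subunit of complex V. Micos10 and Micos13 had no row under these symbols.

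**Figure D5:**
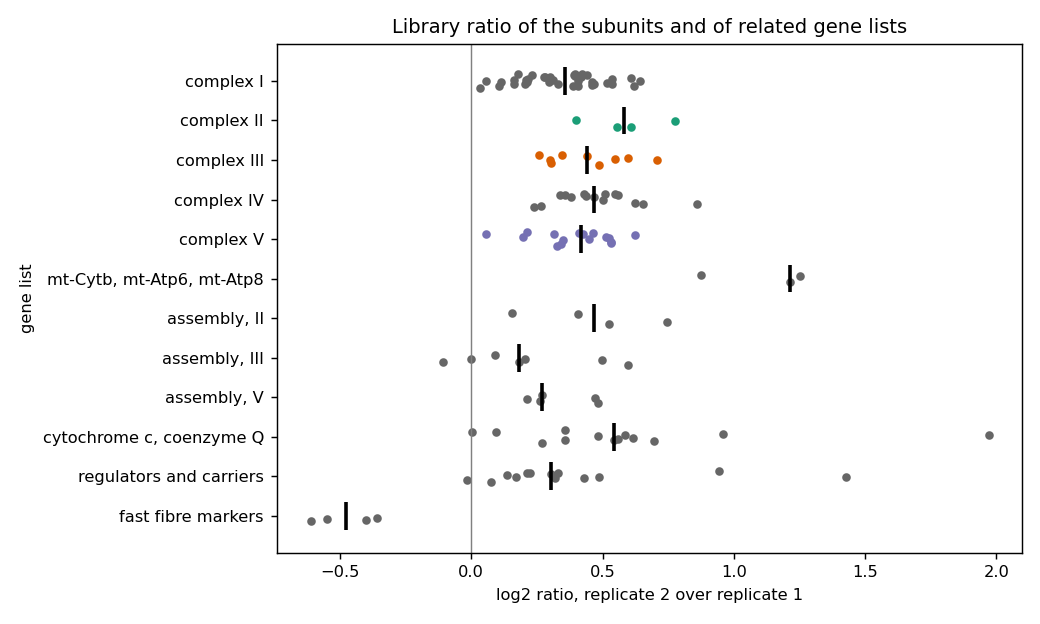
Log2 ratio of replicate 2 over replicate 1 for single genes (points, jittered) of each list, well covered as defined above, with a black bar at each list's median. Complexes I to V lie to the right of 0 with medians between 0.36 and 0.58, the mitochondrially encoded partners lie further right and the fast fibre markers to the left.

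The promoters of the members were searched for 4 motifs of factors known to act on respiratory genes. RefSeq promoters (GRCm38.p6, 250 bases before to 50 after the start) were found for 22 of 29 genes, with 25 promoters in all, Atp5f1 being matched under its other name Atp5pb. Both strands were searched. The NRF1 motif GCATGCGC was present in 6 of 25 (24%), in 2.71% of all promoters and in 5.48% of those of well-covered coding genes. The ETS motif CCGGAAG was present in 9 of 25 (36%), in 8.86% of all promoters and in 18.2% of those of well-covered coding genes. The SP1 motif GGGCGG was present in 7 of 25 (28%), in 35.7% of all promoters and in 64.3% of those of well-covered coding genes. The YY1 motif AAGATGGCG was present in 2 of 25 (8%), in 1.4% of all promoters and in 3.39% of those of well-covered coding genes. NRF1, ETS and YY1, the last with 2 promoters only, were thus more frequent among the members than in either background, and SP1 less frequent, as a description without a test. 8 genes held none of the 4 motifs, among them Sdha, Atp5c1, Atp5g1 and Atp5g3, which says only that these letters are not in the window. The share of all genes that hold none was not counted, so this number has no background. A match is not a bound site.

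Genes holding both the NRF1 and the ETS motif were Sdhb, Uqcr11, Atp5k and Atp5l, 4 of the 22 with a promoter, against 0.618% of all genes. The share among well-covered genes was not counted for the pair. A gene of each complex is shown because its motifs can be seen in place. The 250 bases before the start are printed 5′ to 3′ on the gene's strand, with motif matches in capitals: Sdhb from chr4:140961021-140961270, plus strand, Uqcr11 from chr10:80406822-80407071, minus strand, and Atp5l from chr9:44920743-44920992, minus strand (GRCm38.p6).
Sdhb: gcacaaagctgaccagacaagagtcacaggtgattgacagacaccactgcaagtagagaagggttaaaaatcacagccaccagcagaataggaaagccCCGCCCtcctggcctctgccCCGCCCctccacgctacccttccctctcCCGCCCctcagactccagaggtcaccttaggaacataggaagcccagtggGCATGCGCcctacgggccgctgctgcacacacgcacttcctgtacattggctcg
Uqcr11: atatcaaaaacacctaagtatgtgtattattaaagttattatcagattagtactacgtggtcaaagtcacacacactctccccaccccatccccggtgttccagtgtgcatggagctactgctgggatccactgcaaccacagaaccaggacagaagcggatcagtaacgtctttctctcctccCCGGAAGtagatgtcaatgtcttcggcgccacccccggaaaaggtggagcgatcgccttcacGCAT
Atp5l: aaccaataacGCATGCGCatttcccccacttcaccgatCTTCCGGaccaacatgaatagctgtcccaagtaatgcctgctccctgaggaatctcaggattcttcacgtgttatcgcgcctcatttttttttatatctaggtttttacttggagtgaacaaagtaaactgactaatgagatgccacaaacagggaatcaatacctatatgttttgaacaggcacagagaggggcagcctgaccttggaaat
In Sdhb the capitals are 3 SP1 matches on the reverse strand and an NRF1 match that begins 54 bases before the start, and its ETS match lies after the start. None of these matches overlaps another. In Uqcr11 the ETS match begins 66 bases before the start, and the NRF1 match begins 4 bases before it and runs past the end of the printed stretch. In Atp5l the NRF1 match begins 240 bases and 1 ETS match 212 bases before the start, and a second ETS match lies after the start. The library ratios of these genes were 0.77, 0.30 and 0.51, so the motif pair stood with both a high and a low ratio among the members.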

How the data were processed

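Total RNA was sequenced from gastrocnemius in 2 libraries of 1 group, which the labels number as replicates 1 and 2. Each library has a gene table and 2 transcript tables, as deposited by the authors, on mm10 with GENCODE M21, per the labels and the deposited descriptions. Expected counts in the gene and alignment-based tables, and estimated counts in the reads-based table, are as deposited and not normalised. TPM values are as the authors deposited them. The posterior SD of the count is deposited too and serves as a score of the certainty of assignment. The quantification program is not given in the sources used here.

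The members and lists were chosen with earlier results of these data known. Genes named are every member with its TPM, the log2 ratio of the highest and lowest member of each complex and of every member past 1.5-fold, and of each other list the members past 2-fold and up to 4 of the highest; other ratios were named after their values were seen. Expected counts were rounded and scaled by TMM in edgeR 4.0.16 (R 4.3.3) over 14263 genes passing its filter, with a prior count of 0.5, and DESeq2 1.42.0 gave alternative size factors. Ratios were read beside all genes whose counts averaged 100 or more. Copies were found with BLAST 2.17.0 in GENCODE transcripts. Other steps used Python 3.11.15, numpy 2.4.6, pandas 2.3.3 and matplotlib 3.10.9. The scaling was run on simulated counts with counting noise only, a simpler setting than these libraries. Its accuracy for these libraries was not tested. The reads map a hybrid genome to mm10, and the effect of that was not tested. Reads shared between genes are divided by estimation.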

Additional observations from a re-analysis of the deposited data

How the results depend on the processing

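No paired analysis was possible because the series has 1 group. There were 125 alternatives over 24 results. Of these, 96 moved a value by less than the spread between the libraries or a count of genes by no more than 1.5 times. The other 29 moved it by more, and none turned a direction. The 96 are no measure of robustness, since part of them was fixed in advance. With 1 library left out, a mean of 2 always moves by less than their SD, and some alternatives kept the same genes. For a ratio the allowed move grew with the ratio itself. The complex II median of 0.58 thus counted as unmoved at 0.97 under spike-ins. Most scalings move all genes nearly alike, so directions had little room to turn. The count of members led by a protein-coding transcript, 27, was 23 in the reads-based table and 28 by counts. Median TPM of complexes II, III and V ranged over 165 to 250.2, 282 to 343 and 250.5 to 331 with 1 library left out. It was 490.2, 734 and 683 with TPM rescaled to nuclear protein-coding genes, and 517 for complex III and 591 for complex V in the reads-based table. Scaling by spike-ins gave median log2 ratios of 0.82 for complex III, 0.80 for complex V, 0.74 for complex I, 0.85 for complex IV, 0.85, 0.57 and 0.65 for the assembly factors of complexes II, III and V and 0.69 for regulators and carriers. It put 27 members past 1.5-fold and 3 past 2-fold, and rescaled TPM put 15 past 1.5-fold. These follow from the reference, since the spike-ins move all genes. Shares of Atp5g1, Atp5g2 and Atp5g3 in the c ring ranged over 53 to 54.3%, 0.459 to 0.664% and 45 to 46.5% with 1 library left out. They were 37.9%, 20.8% and 41.3% in the reads-based table and 45.6%, 18.3% and 36.1% with copies added, an alternative chosen after seeing the data. From counts, Atp5g1 was 48.7% and Atp5g3 50.6%, which puts Atp5g3 first. The share of Atp5c1 counted as including the cassette exon ranged over 1.37 to 3.99% with 1 library left out and was 5.07% in the reads-based table. The median share of the leading transcript was 81.3% in the reads-based table and 99.9% over protein-coding transcripts. With medians in place of sums, the mitochondrially encoded genes were 21.9 times the nuclear genes in complex III and 12.3 times in complex V. For the table changes the cause was not tested.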
